A study of Mus musculus with 10 samples.

Results

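The genes of the major histocompatibility complex (MHC) and of its antigen presentation machinery were followed in 2 tables of RNA-seq values from the mouse testis. The members were every gene whose symbol starts with H2-, the mouse name of this complex, together with *Cd74*, *Ciita*, *Nlrc5*, *Tap1*, *Tap2* and *Tapbp*. There were 43 such genes in either table and 35 in both. The day 7 table held 36 of them among 17816 genes, and the adult table held 42 among 20007 genes. In the RefSeq annotation of GRCm38.p6, all 43 were found by gene ID, 40 of them on chromosome 17, with *Nlrc5* on chromosome 8, *Ciita* on chromosome 16 and *Cd74* on chromosome 18. Genes were tested if their FPKM, a level scaled by gene length and library size, reached 0.5 in a number of samples equal to the group size. That left 21 members at day 7 and 29 in adult testis, so 15 and 13 members respectively were measured and not tested.

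RNF20 is the E3 ligase that places ubiquitin on histone H2B. In the study, mice with a floxed *Rnf20* gene were crossed with mice that express Cre recombinase from the *Amh* promoter, which is active in Sertoli cells, the somatic cells that nurse germ cells inside the seminiferous tubules. The day 7 table held Sertoli cells of mice 7 days after birth, with 2 samples from Rnf20Flox/Flox mice, which the labels call WT, and 2 from Amh-Rnf20-/- mice. Per the study's methods these cells were freed by enzymes, cultured with serum and passaged before use, so they were cells in culture and not cells straight from the tissue. The adult table held whole testis, with 3 samples labelled WT and 3 labelled *RNF20* conditional knockout. The labels list no treatment for any group. Their growth field reads adult tissue for every sample, the day 7 cells included, and the study's methods describe RNA-seq of the day 7 cells only, so what the adult samples were rests on their labels. The strain and the exact age of the adults are not given in the sources used here, and MHC genes differ between mouse strains. Per the study's methods, RNA of the day 7 cells was taken from several individuals per genotype. The day 7 table holds fewer samples per group than those individuals, and no label ties a sample to an animal. For the adult samples, no source used here says that they came from separate animals, so their p-values measure the spread between these samples, which may be technical.

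MHC class I molecules are cell surface proteins made of a heavy chain, such as the products of *H2-K1* and *H2-D1*, and the small partner chain encoded by *B2m*. They show peptides from inside the cell to cytotoxic T cells. The peptides are cut by the proteasome, pumped into the endoplasmic reticulum by the transporter of *Tap1* and *Tap2*, and loaded with the help of tapasin, the product of *Tapbp*. Class II molecules pair an alpha and a beta chain (*H2-Aa* with *H2-Ab1*, *H2-Ea* with *H2-Eb1*), are guarded by the invariant chain of *Cd74*, and are loaded with peptides by the H2-DM pair. They are found mainly on macrophages, dendritic cells and B cells, and the testis is known as a site where immune responses are held down. *Ciita* and *Nlrc5* encode the master coactivators of class II and class I genes, which act through promoter elements that include a CCAAT box and an element related to the cAMP response element.

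*Rnf20* itself was at an FPKM of 16.6 and 16.0 in the Rnf20Flox/Flox samples of day 7 and at 10.2 and 12.6 in the Amh-Rnf20-/- samples. It was lower in both knockouts, by a log2 fold change of -0.49 (SE 0.12), which did not pass the test across all genes (edgeR, adjusted p = 0.222). In the adult table it was at 4.89, 3.32 and 4.09 in the samples labelled WT and at 9.16, 5.76 and 9.85 in those labelled knockout. The level per length was therefore not lower in the adult samples labelled knockout, and the fitted log2 fold change was 0.12 (SE 0.27, edgeR, adjusted p = 0.688). Sertoli cells are only some of the cells of the whole testis, and the labels were kept as given.

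The promoters of the members are shown first, since many genes of this pathway share promoter elements. Of the 43 members, 30 had an entry in the RefSeq promoter table of GRCm38.p6, and the 250 bases before the start used in that table were searched on both strands. In 7 members (*H2-DMa*, *H2-DMb2*, *H2-Eb2*, *H2-K1*, *H2-M5*, *H2-Q7* and *H2-T-ps*) that window overlaps the gene's own listed span, so it does not lie before the outermost start. The table does not hold *Cd74*, *Ciita*, *H2-Ab1*, *H2-Bl*, *H2-Ea*, *H2-Q1*, *H2-Q8*, *H2-Q9*, *H2-T10*, *H2-T18*, *H2-T24*, *Nlrc5* and *Tap2*. The CCAAT box, searched as ATTGG and its reverse complement, was in 26 of the 30 windows and in 34.5% of 27025 promoters of the same length. The core of the cAMP response element, TGACG, was in 11 windows and in 17.9% of all promoters. The letters of both were found together in 11 windows, among them those of *H2-Aa*, *H2-D1*, *H2-K1*, *H2-M3*, *H2-Q4*, *H2-T22* and *Tap1*, and in 6.39% of all promoters. Of these 11 members, *H2-Q7* and *Tap1* were tested and not called by edgeR in all adult samples, and *H2-M10.3* and *H2-M10.4* were not tested. The core of the interferon-stimulated response element, GAAANNGAA, was in 2 windows, those of *H2-T22* and *H2-T23*, and in 7.16% of all promoters. A site of the NF-kB type, GGGATTCCC, was in 4 windows and in 0.311% of all promoters. Each match describes letters in a window and no binding was measured here.

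The 4 windows printed here belong to class II and class I-like genes that were all called higher in adult testis. They were picked after their values were seen, as examples of how the letters are placed, and not as a contrast with genes that were not called. Their capitals mark matches to any of the 4 motifs, 5′ to 3′ on the strand of the gene. They lie at chr17:34287824-34288073 (minus strand) for *H2-Aa*, chr17:34305617-34305866 (plus strand) for *H2-Eb1*, chr17:37269984-37270233 (plus strand) for *H2-M3* and chr17:36042743-36042992 (minus strand) for *H2-T22*.
H2-Aa: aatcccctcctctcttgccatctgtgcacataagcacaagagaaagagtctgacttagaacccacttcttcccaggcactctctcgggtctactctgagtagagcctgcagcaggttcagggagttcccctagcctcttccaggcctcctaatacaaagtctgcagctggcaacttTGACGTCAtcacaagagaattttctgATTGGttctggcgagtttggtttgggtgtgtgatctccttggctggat
H2-Eb1: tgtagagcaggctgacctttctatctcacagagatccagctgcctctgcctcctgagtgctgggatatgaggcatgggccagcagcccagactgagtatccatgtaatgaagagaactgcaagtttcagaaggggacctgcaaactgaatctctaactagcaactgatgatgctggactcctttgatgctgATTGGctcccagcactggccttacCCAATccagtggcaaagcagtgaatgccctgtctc
H2-M3: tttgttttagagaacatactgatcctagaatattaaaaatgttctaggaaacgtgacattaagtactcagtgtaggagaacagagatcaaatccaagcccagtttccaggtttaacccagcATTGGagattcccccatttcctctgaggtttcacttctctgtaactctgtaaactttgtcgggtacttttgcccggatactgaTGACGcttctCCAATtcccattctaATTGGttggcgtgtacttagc
H2-T22: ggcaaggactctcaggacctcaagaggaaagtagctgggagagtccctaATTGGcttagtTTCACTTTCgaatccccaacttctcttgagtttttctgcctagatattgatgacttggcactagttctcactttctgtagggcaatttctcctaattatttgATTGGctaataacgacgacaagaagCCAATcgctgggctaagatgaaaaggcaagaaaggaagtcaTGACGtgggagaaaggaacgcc
In the *H2-Aa* window the 2 matches of TGACG, 1 on each strand, overlap in a single run, and a match of ATTGG follows closer to the start. The *H2-Eb1* window holds 2 matches of the CCAAT box, and the *H2-M3* and *H2-T22* windows hold 3 each and a TGACG.

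The 30 bases around the NF-kB type site are printed for the 4 members that hold it, because the neighbouring bases are much alike in these class I genes. They lie at chr17:34000438-34000467 (minus strand) for *H2-K1*, chr17:35262914-35262943 (plus strand) for *H2-D1*, chr17:35424668-35424697 (plus strand) for *H2-Q6* and chr17:35439013-35439042 (plus strand) for *H2-Q7*, with the site in capitals.
H2-K1: cccagggctgGGGATTCCCcatctccacag
H2-D1: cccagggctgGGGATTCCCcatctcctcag
H2-Q6: cccatggctgGGGATTCCCcatctccccag
H2-Q7: cccatggctgGGGATTCCCatctccccagt
The values of these 4 genes are given with the class I genes.

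In adult testis, 15 of the 29 tested members rose in the samples labelled knockout and none fell, where a call needs a log2 fold change beyond 1 in either direction with an adjusted p below 0.001 (edgeR). Over all 15919 genes tested, 23.0% were called higher and 23.7% lower. With an adjusted p under 0.05 and no limit on the fold, 24 members were higher and none lower, against 40.9% higher and 40.6% lower over all genes. In 23 members the samples labelled knockout lay above all controls on the TMM scale, in none below, and in 6 the groups overlapped, where 42.4% of all genes lay above and 43.1% below. The median log2 fold change was 2.54 over the tested members and 0.011 over all genes. These shares and the median of all genes depend on the TMM scaling. With total-count scaling 5836 genes were called higher and 2252 lower, the median of all genes was 0.87, and 17 members were called higher and none lower. The members with no control at 0.5 passed the filter through the knockouts alone and had to differ. These counts and the median therefore describe the tested members and not all 42. No control reached 0.5 in *H2-M2*, *Ciita*, *H2-Q9* and *H2-T-ps*, and *H2-M2* and *Ciita* were among the called members. *H2-T22*, *H2-Q7*, *H2-Ea*, *Tap2* and *H2-Ob* reached 0.5 in some controls only and needed samples labelled knockout to pass. Of these, *H2-T22* alone was called. Leaving out a library changed the count of 15 called members to 5, 3 and 4 without control 1, 2 and 3, to 19 without knockout 1, and to 8 and 6 without knockout 2 and 3, with none lower in any of them.

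In the day 7 Sertoli cells no member was called, and no gene was called at all (0% of 12880 genes). The study itself reported differentially expressed genes in day 7 Sertoli cells at these thresholds, *Cldn11* among them. Its methods do not name the test, and the reason for the difference was not tested. The smallest adjusted p of a member was 0.197 and that of any gene was 0.0961 (edgeR). With an unadjusted p under 0.05 there were 4 members, *H2-Q2*, *H2-Q7*, *H2-T22* and *H2-T23*, and 1997 genes. DESeq2 called 126 genes and none of the members, but gave no adjusted p for *H2-Q2*, *H2-Q7* and *H2-Q8*, which could therefore not be called. Without knockout 1 or knockout 2 edgeR called 61 and 650 genes and none of the members. In these fits the lone knockout is assumed to vary like the controls, and 5 and 8 members respectively had an adjusted p under 0.05, where the fit of all 4 samples had none. *H2-D1* and *H2-T22* were among both, and *H2-D1* was at -0.66 without knockout 1 and at 0.24 without knockout 2. Overlap was judged on TMM-scaled counts, which can differ from the order of the FPKM. The Amh-Rnf20-/- samples lay above both controls in 5 members and below in 4, where 24.8% of all genes lay above and 26.1% below, and the groups overlapped in the other 12. The median log2 fold change was -0.067 over the members and -0.0039 over all genes. The plot of fold changes sets both tables side by side; they were made separately, share no sample, and were tested separately.

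**Figure D1:**
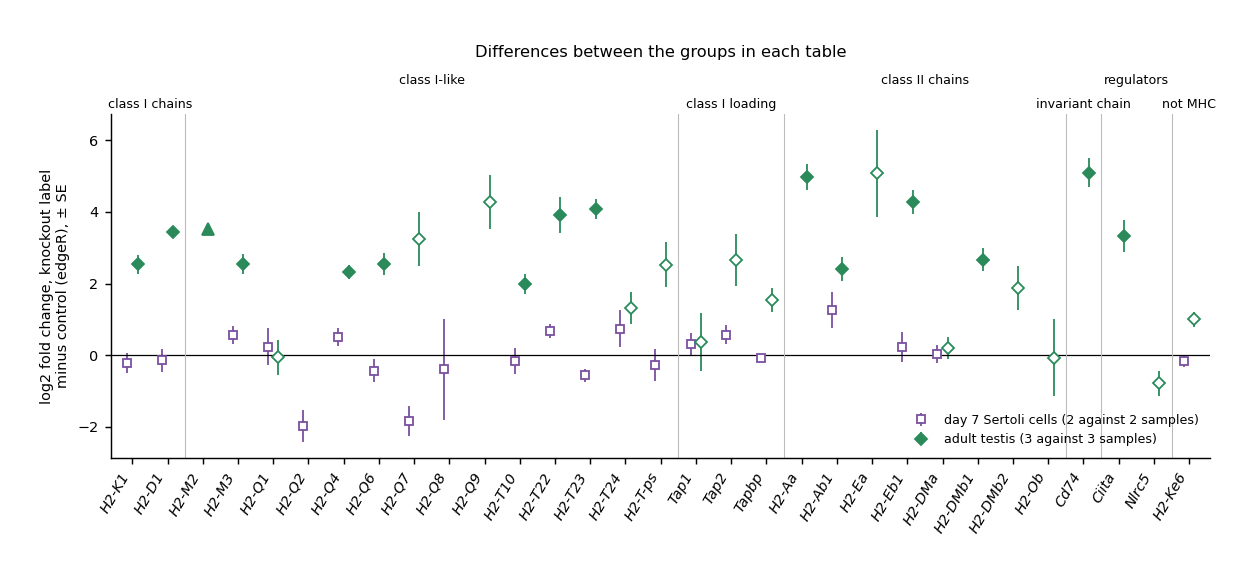
Log2 fold change of each tested member with its standard error (edgeR), in day 7 Sertoli cells (squares) and adult testis (diamonds), grouped by role. Filled symbols passed the thresholds, the triangle for *H2-M2* is a lower bound because all its controls were at 0, and 15 adult symbols and no day 7 symbol are filled.

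The classical class I heavy chains were the most abundant members in day 7 Sertoli cells and rose in adult testis. In adult controls, *H2-K1* (chr17:33996012-34000619) was at an FPKM of 39.8, 42.8 and 47.0. The samples labelled knockout were at 321, 510.1 and 482.9, all above the controls, with a log2 fold change of 2.54 (SE 0.26, edgeR, adjusted p = 0.00022). *H2-D1* (chr17:35263094-35267497) was at 31.8, 28.7 and 32.7 in controls and at 545.6, 605.3 and 678 in the samples labelled knockout. Its log2 fold change of 3.44 (SE 0.17, edgeR, adjusted p = 3.05e-05) had the smallest adjusted p of the members. At day 7, *H2-K1* was at 174.5 and 188.2 in controls and at 190.6 and 108.7 in the knockouts. *H2-D1* was at 130.4 and 146.1 in controls and at 157.7 and 85.4 in the knockouts. In both genes knockout 2 was the lowest sample and knockout 1 the highest, so the groups overlapped, and the log2 fold changes of -0.21 and -0.14 did not pass (edgeR, adjusted p = 0.762 and 0.863).

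Apart from copies listed as pseudogenes, the class I-like genes of the Q, T and M groups encode heavy chains that vary little between individuals. Several are known as ligands of receptors on natural killer cells and unconventional T cells. Their sequences are much alike, so reads may be split between copies and single values of the Q and T genes are uncertain. In adult testis 12 of 23 were tested, 7 rose and none fell, and 11 lay above all controls. Over all genes tested, 23.0% were called higher and 42.4% lay above. *H2-T23*, which encodes Qa-1, the ligand of an inhibitory receptor of natural killer cells, was at an FPKM of 1.38, 1.84 and 1.99 in controls. The samples labelled knockout were at 62.6, 58.5 and 40.9, a log2 fold change of 4.07 (SE 0.28, edgeR, adjusted p = 5.55e-05). At day 7 the same gene was at 14.6 and 15.8 in controls and lower, at 8.62 and 12.8, in the knockouts, without passing (log2 fold change -0.56, SE 0.18, edgeR, adjusted p = 0.275).

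*H2-T22*, which encodes a ligand of gamma-delta T cells, was at 0.64, 0.31 and 0.48 in adult controls and at 8.95, 30.6 and 13.3 in the samples labelled knockout. It rose by a log2 fold change of 3.92 (SE 0.50, edgeR, adjusted p = 0.00053), with knockout 2 well above the other two. At day 7 it was at 7.94 and 8.07 in controls and at 10.8 and 14.9 in the knockouts, above both controls and not called (log2 fold change 0.67, SE 0.20, edgeR, adjusted p = 0.262). *H2-T10*, a close relative of *H2-T22* that RefSeq lists as a transcribed pseudogene, was at 2.08, 1.30 and 1.82 in adult controls and at 12.6, 8.91 and 15.8 in the samples labelled knockout. It rose by 1.99 on the log2 scale (SE 0.27, edgeR, adjusted p = 0.000663), and its day 7 groups overlapped between 5.11 and 10.5.

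Among the Q genes, *H2-Q4* was at 2.51, 2.27 and 2.82 in adult controls and at 18.1, 28.1 and 23.4 in the samples labelled knockout. It rose by 2.33 on the log2 scale (SE 0.20, edgeR, adjusted p = 0.000109). *H2-Q6* was at 1.31, 1.19 and 1.63 in controls and at 11.6, 20.5 and 11.3 in the samples labelled knockout. It rose by 2.54 on the log2 scale (SE 0.31, edgeR, adjusted p = 0.000444). Knockout 2 was the highest sample in both genes and in *H2-Q7*, where the controls were at 0.23, 0.65 and 0.47 and the samples labelled knockout at 3.32, 14.5 and 5.41. *H2-Q7*, a source of the Qa-2 antigen, differed by 3.24 on the log2 scale (SE 0.75, edgeR, adjusted p = 0.00703) and was not called, while DESeq2 called it (3.06, adjusted p = 0.000141), as did edgeR without knockout 1 (3.76, adjusted p = 0.000254). *H2-Q9* (0.18, 0.13 and 0 in controls, 2.78, 6.08 and 3.43 in the samples labelled knockout) did not pass the thresholds either (4.27, SE 0.76, edgeR, adjusted p = 0.0022). An alternative run called it, and its log2 fold change was 2.16 to 5.11 over the settings run. The groups of *H2-Q1* overlapped (-0.06, SE 0.48, edgeR, adjusted p = 0.916). At day 7, *H2-Q4* was at 5.77 and 7.16 in controls and at 10.7 and 7.09 in the knockouts, which lay above the controls on the TMM scale only. *H2-Q6* was at 1.16 and 1.18 in controls and at 1.01 and 0.67 in the knockouts (log2 fold change -0.43, SE 0.32, edgeR, adjusted p = 0.572). *H2-Q7* was at 1.24 and 1.13 in controls and at 0.42 and 0.24 in the knockouts, both below the controls. *H2-Q2* was likewise at 0.52 and 0.82 in controls and at 0.17 in both knockouts, and neither gene passed (edgeR, adjusted p = 0.203 and 0.197).

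Of the M genes, *H2-M3*, whose product shows peptides that start with a formyl group, was at 0.83, 0.63 and 1.1 in adult controls. The samples labelled knockout were at 9.64, 7.67 and 9.68, a rise of 2.54 on the log2 scale (SE 0.28, edgeR, adjusted p = 0.000308). *H2-M2* had no count in any adult control and 50, 51 and 79 counts in the samples labelled knockout, at an FPKM of 2.68, 2.68 and 4.34. Set against the limit that a count of 0 allows, 3 counts per library, it was at least 11.4-fold higher in the samples labelled knockout, and it was called (edgeR, adjusted p = 0.000674). At day 7 its 52 counts in knockout 1 stood against 5 and 8 in the controls and 4 in knockout 2, so a single library carried it. The M10 genes are known from the vomeronasal organ. *H2-M10.3* had 4, 12 and 8 counts in adult controls and none in the samples labelled knockout, and was not tested. *H2-Q10*, a secreted class I molecule, was not tested either, with 308 counts in knockout 2 (an FPKM of 15.6) and at most 0.47 in the other samples. The other untested class I-like members were at 0.58 or less in every adult sample.

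**Figure D2:**
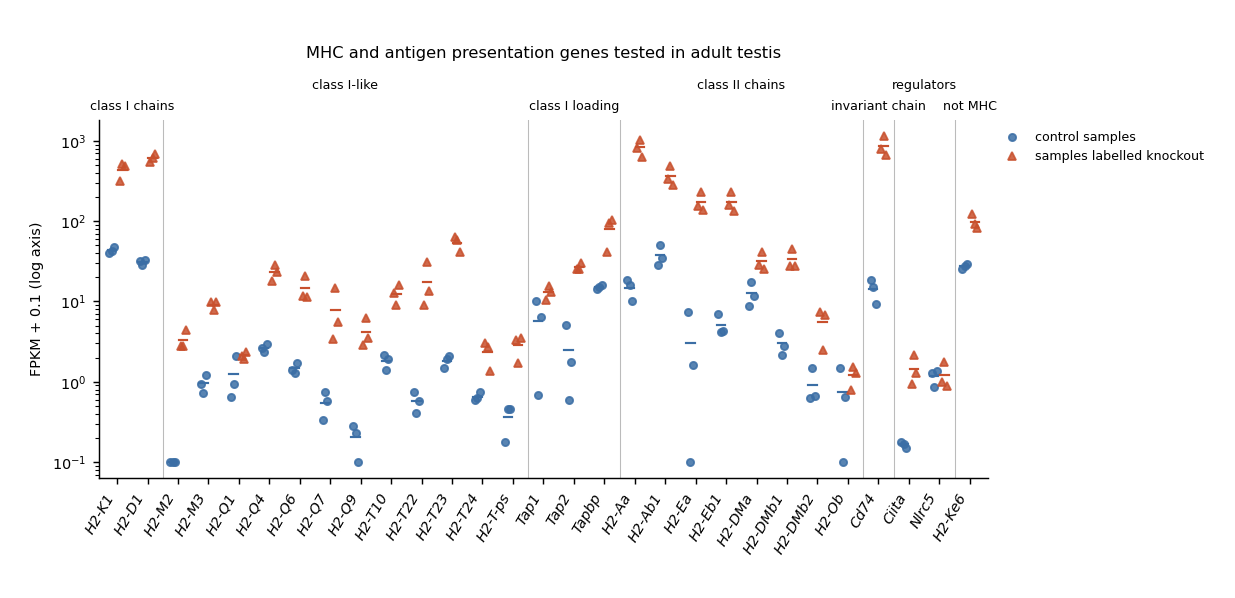
FPKM + 0.1 on a log axis for the 29 members tested in adult testis, with 1 symbol per sample (circles for 3 controls, triangles for 3 samples labelled knockout) and a line at the mean of each group. The triangles lie far above the circles in most class I and class II chains, and the groups overlap or nearly touch in *H2-Q1*, *H2-Ob*, *Nlrc5* and *Tap1*.

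None of the 3 peptide loading genes was called by edgeR in all adult samples, where *Tapbp* and *Tap2* lay above all controls on the TMM scale and *Tap1* overlapped on that scale. *Tapbp* passed the thresholds with DESeq2 (1.33, adjusted p = 0.000576) and in edgeR without knockout 1 (1.97, adjusted p = 2.7e-07), and *Tap2* with limma on log2(FPKM + 1) (3.27, adjusted p = 0.000796). *Tapbp* was at an FPKM of 14.2, 15.2 and 15.7 in controls and at 41.0, 95.8 and 103.8 in the samples labelled knockout, a log2 fold change of 1.54 (SE 0.33, edgeR, adjusted p = 0.00494). Knockout 1 was under the other two and still above all controls. *Tap2* was at 4.97, 0.49 and 1.65 in controls and at 25.3, 24.9 and 29.8 in the samples labelled knockout, a log2 fold change of 2.65 (SE 0.72, edgeR, adjusted p = 0.0134). *Tap1* was at 10.1, 0.59 and 6.38 in controls and at 10.4, 15.3 and 13.2 in the samples labelled knockout, a log2 fold change of 0.36 (SE 0.81, edgeR, adjusted p = 0.691). The *Tap1* and *Tap2* controls were spread more widely than the samples labelled knockout, with control 2 the lowest in both genes, and in *Tap2* control 3 was also well below control 1. Without control 2 the *Tap1* log2 fold change was -0.17. At day 7, *Tapbp* was at 93.0 and 84.4 in controls and at 88.5 and 76.3 in the knockouts. *Tap1* ranged from 2.23 to 3.91 and *Tap2* from 5.83 to 11.6 at day 7, with the *Tap2* knockouts just above the controls and no call.

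Class II chains were low in day 7 Sertoli cells, and in adult testis 4 of the 8 tested chains rose and none fell, where 23.0% of all genes were called higher. In adult controls, *H2-Aa* (chr17:34282744-34287823) was at an FPKM of 18.2, 15.8 and 10. The samples labelled knockout were at 821, 1036 and 633, and the log2 fold change was 4.97 (SE 0.36, edgeR, adjusted p = 6.91e-05). Its beta chain *H2-Ab1* (chr17:34263227-34269418) was at 28.6, 50.8 and 34.3 in controls and at 335.6, 487.2 and 281 in the samples labelled knockout. It rose by 2.41 on the log2 scale (SE 0.34, edgeR, adjusted p = 0.000812). All samples labelled knockout were above all controls in both genes, and knockout 2 was the highest in both.

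*H2-Eb1*, the beta chain of the second class II pair, was at 6.96, 4.02 and 4.17 in controls and at 161, 232.5 and 132.4 in the samples labelled knockout. It rose by 4.27 on the log2 scale (SE 0.34, edgeR, adjusted p = 9.01e-05). Its alpha chain *H2-Ea*, which some mouse strains lack and which RefSeq lists as a transcribed pseudogene, was at 7.26, 0 and 1.53 in controls and at 156.3, 232 and 137.8 in the samples labelled knockout. It differed by 5.07 on the log2 scale (SE 1.21, edgeR, adjusted p = 0.00804) and was not called, with no count in control 2 against 111 and 23 counts in controls 1 and 3. An alternative run called it, and its log2 fold change was 4.49 to 7.33 over the settings run. Its levels in the samples labelled knockout nearly matched those of *H2-Eb1*.

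The H2-DM pair edits the peptides of class II molecules, and the H2-O pair restrains it. *H2-DMb1* was at 3.93, 2.06 and 2.71 in controls and at 27.4, 45.2 and 27.7 in the samples labelled knockout. It rose by 2.66 on the log2 scale (SE 0.32, edgeR, adjusted p = 0.000407). *H2-DMa* was at 8.75, 17.3 and 11.6 in controls and at 28.5, 41.6 and 25.6 in the samples labelled knockout. Its groups overlapped on the TMM scale, and its log2 fold change of 0.21 did not pass (SE 0.30, edgeR, adjusted p = 0.539). With total-count scaling its log2 fold change was 1.08 (edgeR, adjusted p = 0.0122), and limma on log2(FPKM + 1) gave 1.3 (adjusted p = 0.00521), so the value depends on the scaling and on the unit. *H2-DMb2* overlapped too (1.87, SE 0.62, edgeR, adjusted p = 0.0289), with knockout 2 the lowest of its group at 2.39. *H2-Ob* was at 1.40, 0 and 0.55 in controls and at 0.70, 1.43 and 1.18 in the samples labelled knockout, and did not pass (edgeR, adjusted p = 0.952). *H2-Oa* and *H2-Eb2* were not tested, with highest values of 1.33 and 0.11.

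At day 7 only 3 of 9 class II chains passed the filter. *H2-Ab1* was at 0.62 and 0.44 in controls and at 1.61 and 0.87 in the knockouts, which lay above (log2 fold change 1.26, SE 0.50, edgeR, adjusted p = 0.337). *H2-Eb1* ranged from 0.49 to 0.86 and *H2-DMa* from 1.41 to 3.39, and the groups overlapped in both. *H2-Aa*, not tested, was at 0.20 and 0.13 in controls and at 0.40 and 0.60 in the knockouts, on at most 9 counts.

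*Cd74*, the invariant chain, was at an FPKM of 18.6, 15 and 9.16 in adult controls and at 795, 1154 and 669 in the samples labelled knockout. It had the largest fold of the called members with counts in every control (log2 fold change 5.09, SE 0.41, edgeR, adjusted p = 9e-05). Its samples followed the order of *H2-Aa* within each group. At day 7 *Cd74* was not tested, at 0.36 and 0.18 in controls and at 2.26 and 0.24 in the knockouts, so knockout 1 alone stood out, with 38 counts.

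Both coactivators were tested in adult testis. *Ciita* was at 0.08, 0.07 and 0.05 in adult controls and at 0.83, 2.04 and 1.18 in the samples labelled knockout. It rose by 3.32 on the log2 scale (SE 0.44, edgeR, adjusted p = 0.000619). Only the samples labelled knockout brought *Ciita* past the filter, so a tested *Ciita* had to be higher there, and no contrast with *Nlrc5* is read from it. *Nlrc5* was at 1.2, 0.77 and 1.26 in controls and at 0.88, 1.64 and 0.79 in the samples labelled knockout. Its groups overlapped and its log2 fold change of -0.78 did not pass (SE 0.35, edgeR, adjusted p = 0.0795), while under total-count scaling it was 0.07. The difference between the 2 genes was not tested. Neither was tested at day 7, where *Ciita* was at most 0.07 and *Nlrc5* at 0.09, 0.09, 0.37 and 0.08 in controls 1 and 2 and knockouts 1 and 2. The H2-named gene *H2-Ke6* encodes no MHC molecule. It differed by 1.01 on the log2 scale in adult testis (SE 0.21, edgeR, adjusted p = 0.00437) and ranged from 15.6 to 20.6 at day 7.

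**Figure D3:**
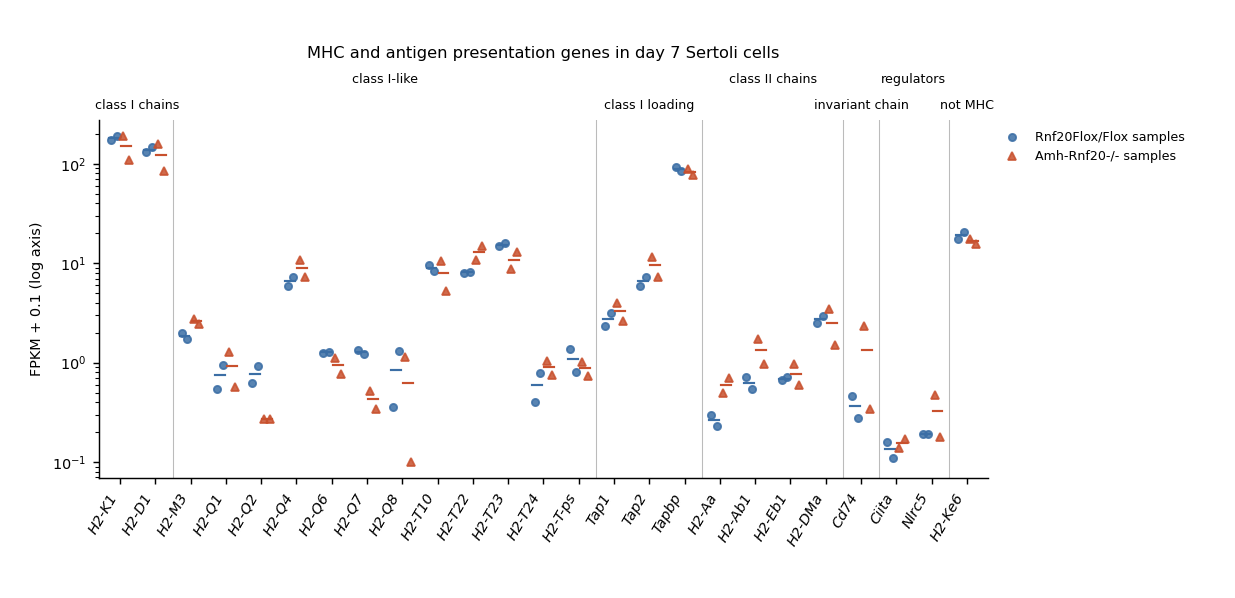
FPKM + 0.1 on a log axis in day 7 Sertoli cells for the 21 tested members and for *H2-Aa*, *Cd74*, *Ciita* and *Nlrc5*, with 1 symbol per sample and a line at the mean of each group. *H2-K1*, *H2-D1* and *Tapbp* are at an FPKM of at least 76.3 in all 4 samples, and the class II chains shown are at most 3.39.

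The order of the role groups by summed FPKM differed between the tables. At day 7 the classical class I chains summed to between 194 and 348 per sample, the class II chains to between 3.86 and 6.84, and *Cd74* to at most 2.26. In adult controls the classical class I chains summed to between 71.5 and 79.7 and the class II chains to between 65.7 and 91.5, ranges that overlap. In the adult samples labelled knockout the classical class I chains summed to 867, 1115 and 1161 and the class II chains to 1538, 2079 and 1246. The class II chains were ahead in all 3 of these. The tables were made separately, and levels set across them are a description.

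Ratios within a sample do not depend on how libraries are scaled against each other. The pairs were picked after their values were seen and are given without a test. The ratio of *H2-Aa* to *H2-Ab1* was 0.64, 0.31 and 0.29 in adult controls and 2.45, 2.13 and 2.25 in the samples labelled knockout, so the chain that was behind in controls was ahead. The ratio of *H2-Eb1* to *H2-Ab1* was 0.24, 0.08 and 0.12 in controls and 0.478, 0.477 and 0.472 in the samples labelled knockout, which were nearly identical. By contrast, *Cd74* and *H2-Aa* kept ratios between 0.91 and 1.11 in all 6 adult samples. The ratio of *H2-DMa* to *H2-DMb1* was 2.23, 8.39 and 4.30 in controls and 1.04, 0.92 and 0.924 in the samples labelled knockout. *H2-D1* stood at 0.80, 0.67 and 0.70 of *H2-K1* in controls and at 1.70, 1.19 and 1.40 in the samples labelled knockout, while at day 7 that ratio was between 0.75 and 0.83 in all 4 samples. The groups did not overlap in any of these adult ratios other than that of *Cd74*.

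**Figure D4:**
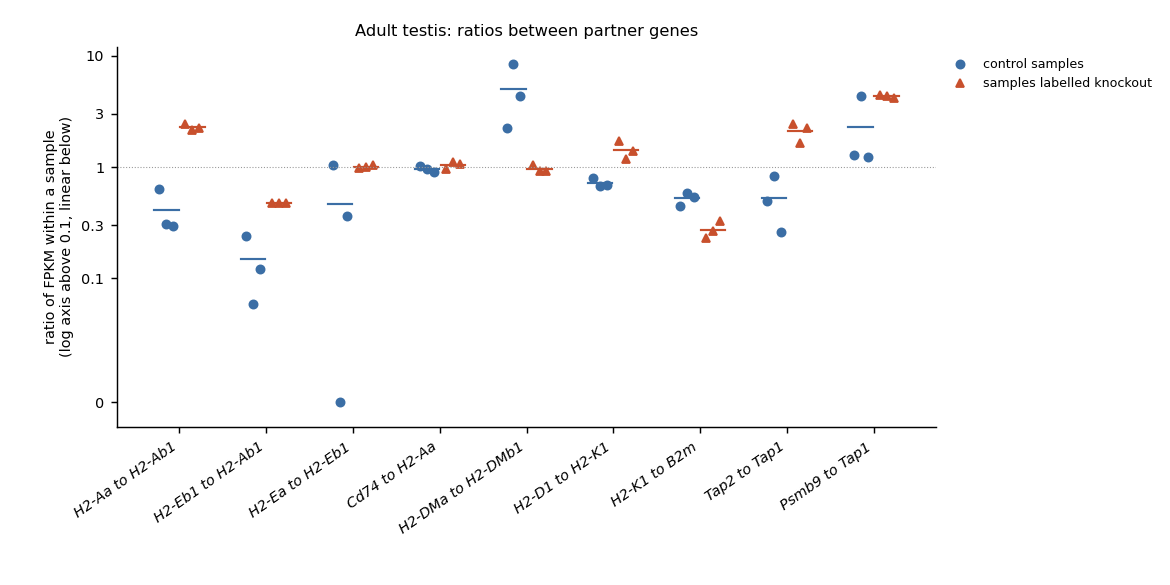
Ratio of FPKM between partner genes within each adult sample (circles for controls, triangles for samples labelled knockout, lines at group means), on an axis that is logarithmic above 0.1 and linear below. The samples labelled knockout lie close together in *H2-Eb1* to *H2-Ab1* and *Psmb9* to *Tap1*, and *Cd74* to *H2-Aa* stays near 1 in all 6 samples.

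Control 2 of the adult table stood apart in several genes of the class II region. On chromosome 17, the members of the class II region tested in adult testis lie, with *Psmb8* and *Psmb9*, in this order: *H2-DMa*, *H2-DMb2*, *H2-DMb1*, *Psmb9*, *Tap1*, *Psmb8*, *Tap2*, *H2-Ob*, *H2-Ab1*, *H2-Aa*, *H2-Eb1* and *H2-Ea*. *Psmb8* and *Psmb9* encode subunits of the immunoproteasome. The untested *H2-Oa* and *H2-Eb2* also lie there and are left out. In *Tap1*, *Tap2*, *H2-Ob* and *H2-Ea*, and in *Psmb8* and *Psmb9*, control 2 was below 0.5 times the lower of the other two controls. This held for 263 of 15919 genes (1.65%) in control 2 and for 4 of the 29 tested members. In control 1 it held for 1.38% of genes and 2 members, *H2-Q7* and *H2-T-ps*, and in control 3 for 1.21% and 1 member, *H2-Q9*, none of them in the class II region. In contrast, *H2-DMa*, *H2-DMb2* and *H2-Ab1*, which lie in the same region, were highest in control 2. The ratio of *Psmb9* to *Tap1* was 4.34 in control 2 and 1.29 and 1.22 in the other two, while the samples labelled knockout were at 4.4, 4.34 and 4.2, close to control 2. The cause of this split of the controls was not tested.

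**Figure D5:**
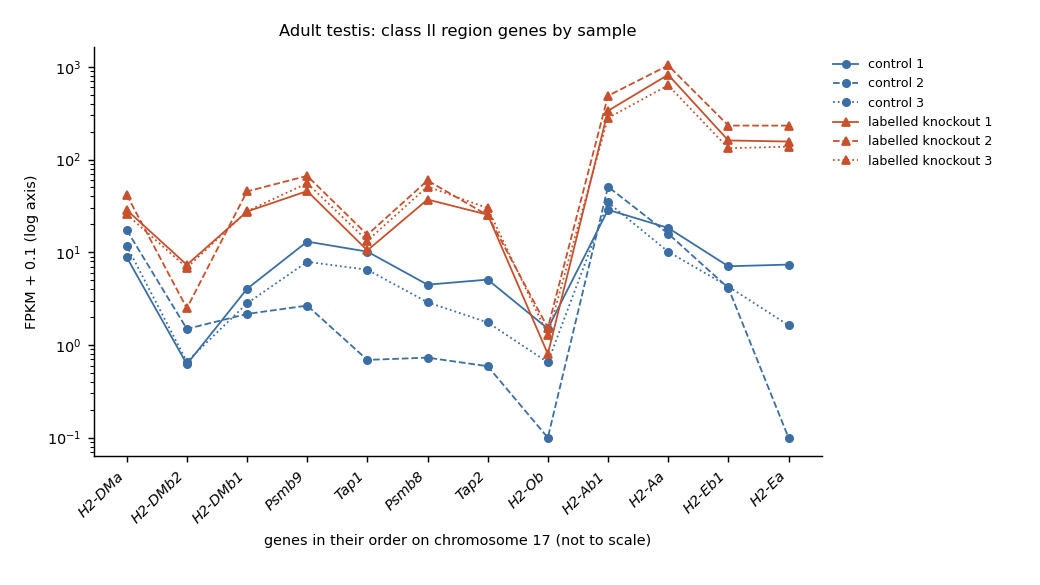
FPKM + 0.1 on a log axis in each adult sample for the tested genes of the class II region, in their order on chromosome 17 and not to scale. Control 2 (dashed circles) lies under both other controls from *H2-DMb1* to *H2-Ob*, narrowly at *H2-Eb1*, and again at *H2-Ea*. The samples labelled knockout stay close together except at *H2-DMb2*.

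A list of 38 other genes of the pathway covers antigen processing, interferon signalling, costimulation and class I-like molecules outside the complex. In adult testis all 38 were tested, 23 rose and none fell, 31 lay above all controls on the TMM scale and 3 below (*Calr*, *Pdia3* and *Rfx5*, whose FPKM was higher in all samples labelled knockout than in any control), and the median log2 fold change was 2.54. Over all genes tested, 23.0% were called higher and 23.7% lower, 42.4% lay above and 43.1% below. No control reached 0.5 in *Cd40*, *Cd80*, *Cd86* and *Marchf1*. They were tested only through the samples labelled knockout and had to be higher there, and all but *Cd80* were called. *Cd1d1*, called, and *Azgp1*, not called, reached 0.5 in some controls only and needed samples labelled knockout to pass. *B2m*, the partner of every class I heavy chain, was at 88.3, 72.9 and 87.8 in controls and at 1403, 1925 and 1470.2 in the samples labelled knockout. It rose by 3.41 on the log2 scale (SE 0.21, edgeR, adjusted p = 4.6e-05). *Psmb10*, an immunoproteasome subunit, was at 3.33, 2.77 and 2.66 in controls and at 44.7, 46.0 and 41.4 in the samples labelled knockout. It rose by 3.06 on the log2 scale (SE 0.16, edgeR, adjusted p = 3.35e-05). *Psmb8* was at 4.37, 0.63 and 2.79 in controls and at 37, 59.4 and 51 in the samples labelled knockout (3.39, SE 0.59, edgeR, adjusted p = 0.00211). *Psmb9* was at 12.9, 2.56 and 7.79 in controls and at 45.6, 66.6 and 55.4 in the samples labelled knockout (2.0, SE 0.53, edgeR, adjusted p = 0.0122). Both lay above all controls and were not called. At day 7, *Psmb8* was at 2.52 and 3.86 in controls and at 8.59 and 3.06 in the knockouts, and *Psmb9* at 1.26 and 1.43 and at 3.02 and 0.78, so knockout 1 was the highest sample in both. *Psmb10* was at 16.1 and 18.4 in controls and at 23.3 and 20.3 in the knockouts, and *B2m* at 404 and 444 and at 572 and 409, and none of them passed.

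The 6 largest called changes of the list were all rises (edgeR). *Irf8*, a transcription factor of myeloid cells, was at 0.91, 1.51 and 1.04 in controls and at 71.9, 40.2 and 45.7 in the samples labelled knockout (log2 fold change 4.66, SE 0.38). *Mr1*, which presents vitamin B metabolites to T cells, was at 0.78, 0.80 and 0.79 and at 37.4, 31.3 and 21.4 (4.42, SE 0.30). *Ctss*, the protease that trims the invariant chain, was at 5.75, 5.28 and 5.34 and at 205.1, 198.7 and 155.8 (4.25, SE 0.19). Knockout 1 was the highest sample in these 3 genes. *Fcgrt*, the neonatal Fc receptor, was at 5.37, 5.4 and 4.67 in controls and at 195.8, 134 and 113 in the samples labelled knockout (4.0, SE 0.29). *Irf1*, an interferon-induced activator of class I genes, was at 0.98, 1.1 and 1.06 and at 22, 28.3 and 28.1 (3.80, SE 0.16). *Cd86*, a costimulator of T cells, was at 0.42, 0.45 and 0.43 and at 9.73, 11.6 and 7.09 (3.58, SE 0.28). All its controls were under the 0.5 of the filter, so a tested *Cd86* had to be higher. The groups did not overlap in any of the 6. *Rfx5*, *Rfxap* and *Rfxank*, the subunits of the factor that binds the X box of MHC promoters, an element not searched here, did not pass. *Rfx5* was at -0.14 (SE 0.12), *Rfxap* at -0.35 (SE 0.17) and *Rfxank* at -0.22 (SE 0.22), with adjusted p of 0.307, 0.101 and 0.394 (edgeR). *Calr* and *Pdia3*, general chaperones of the endoplasmic reticulum, were at -0.45 and -0.28 and did not pass either. At day 7, 35 of the list were tested and none was called, with 15 above both controls, 6 below and a median log2 fold change of 0.18. Over all genes tested at day 7, 24.8% lay above and 26.1% below. The smallest adjusted p belonged to *Fcgrt*, at 18.1 and 19.6 in controls and 39.6 and 32.8 in the knockouts (log2 fold change 0.98, SE 0.13, edgeR, adjusted p = 0.132).

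RNA of marker genes of several cell types differed between the adult groups along with these genes. The 6 spermatid markers summed to an FPKM of 120500 to 188800 in controls, against 3.26 to 71.4 in the samples labelled knockout. The 6 spermatocyte markers summed to 4336, 4283 and 4191 in controls and to 1.27, 248 and 339 in the samples labelled knockout, with knockout 1 far below the other two, and none was called at the thresholds (edgeR; 4 of 6 lower at an adjusted p under 0.05). The endothelial list summed to 2.35, 2.08 and 2.91 in controls and to 34.3, 24.6 and 24.2 in the samples labelled knockout, with 2 of 5 genes called higher. The Leydig, fibroblast and macrophage lists were called higher in 5 of 5, 5 of 5 and 12 of 13 genes, against 23.0% of all genes. The peritubular myoid sums overlapped, at 293 to 366 in controls and 191 to 395.5 in the samples labelled knockout (3 of 6 genes called higher, 1 lower). The spermatogonium sums overlapped too, at 227 to 249.5 in controls and at 47.6, 281 and 399.5 in knockouts 1, 2 and 3 (2 of 6 genes called higher, 0 lower). The macrophage list summed to between 683 and 776 in controls, mostly *Aif1*, the 1 macrophage gene called lower, and to between 2327 and 3611 in the samples labelled knockout. *Ptprc*, found on all leukocytes, was at 0.30, 0.27 and 0.29 in controls and at 6.20, 7.35 and 5.06 in the samples labelled knockout, a log2 fold change of 3.60 (edgeR, adjusted p = 4.69e-05). Of the dendritic cell list, none of 5 tested genes was called, the sums were between 4.78 and 6.02 against 9.25 and 14.2, and *Clec9a* was listed at 0 in controls 2 and 3. For T and NK cells, 2 of 7 tested genes were called higher (sums of 4.53 to 12.8 against 19.3 to 37.3), and for B cells 2 of 4 higher and 1, *Pax5*, lower (sums of 2.42 to 2.91 against 6.95 to 10.1). No control reached the 0.5 of the filter in *Ptprc* and the called markers *Cd3g*, *Cd79a*, *Cd79b*, *Kdr* and *Zbtb16*. They were tested only through the samples labelled knockout and had to be higher there. *Pax5* was tested only through the controls and had to be lower, so these calls add nothing to their levels. In bulk tissue, fewer cells of a type and less RNA per cell cannot be told apart, and the part of these cells in the MHC values was not tested.

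Set against *Ptprc* within each sample, *H2-Aa* was at 60.7, 58.4 and 34.6 times its level in adult controls and at 132, 141 and 125 times in the samples labelled knockout. Against *Csf1r*, the receptor that macrophages need to survive, the ratios were 7.52, 7.48 and 5.98 in controls and 10, 14.3 and 11.1 in the samples labelled knockout. Over the 13 macrophage markers, the ratio was higher in all samples labelled knockout for 11 and overlapped for 2. For *Lyz2* it was 0.764, 0.544 and 0.382 in controls and 0.49, 0.775 and 0.694 in the samples labelled knockout. For *Cd14* it was 21.2, 19 and 10 in controls and 19.8, 29.4 and 18.9 in the samples labelled knockout. The ratios were computed after the values were seen and carry no test. These marker ratios cover *H2-Aa* only. Mean FPKM in the samples labelled knockout was 56.6 times that of controls for *H2-Aa*, 61.1 for *Cd74* and 34.7 for *H2-Eb1*. It was 9.70 times for *H2-Ab1*, 10.1 for *H2-K1* and 19.6 for *H2-D1*. For *Ptprc* and *Csf1r* it was 21.6 and 34.1 times, so *H2-Ab1*, *H2-K1* and *H2-D1* rose less than either marker. At day 7, *Ptprc* was between 0.05 and 0.19 in all samples, the macrophage list summed to between 34.6 and 41.4 in controls and to 68.6 and 39.2 in the knockouts, and none of its 6 tested genes was called.

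The libraries were of like size, with 17477268 to 17705347 counts for the day 7 cells and 15431912 to 16574144 for the adult tissue. The TMM scaling factors of day 7 ranged from 0.984 to 1.02. Those of the adult controls ranged from 0.710 to 0.761 and those of their counterparts labelled knockout from 1.27 to 1.42, so the fitted fold changes there are smaller than the ratios of FPKM. The Sertoli cell list summed to between 639 and 774 in adult controls and to 2065, 5485 and 6207 in the samples labelled knockout, with knockout 1 apart. At day 7 knockout 1 was also apart, with a Sertoli cell sum of 911 against 1260.0 in knockout 2 and 1640.0 and 1501 in controls 1 and 2. The Sertoli cell markers *Sox9* (41.8, 39.4, 10.2 and 25.7) and *Cldn11* (228.9, 213.7, 14 and 150.3) were present in controls 1 and 2 and knockouts 1 and 2 of day 7. Markers of other cells were present in these cultures as well. The fibroblast list summed to 2149 to 2233 in controls and 3303 to 3915 in the knockouts, and the peritubular myoid list to 1911 to 2030.0 and 3553 to 3604, with 5 of 5 and 6 of 6 genes above both controls. The Leydig list summed to 149 and 156 in controls and to 301 and 205 in the knockouts. The spermatogonium list summed to 184 to 193 in controls and 129 to 136 in the knockouts, with 6 of 6 genes below. In the edgeR fit of all 4 day 7 samples, which called no gene at all, no gene of these lists was called, and the alternatives were not computed for them. Their part in the MHC values was not tested.

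Of the members, 19 were tested in both tables. In 5 of them, *H2-Ab1*, *H2-M3*, *H2-Q4*, *H2-T22* and *Tap2*, the knockouts lay above the controls in both tables. In 3, *H2-Q6*, *H2-Q7* and *H2-T23*, they lay below at day 7 and above in adult testis. None lay above at day 7 and below in adult testis. Of the 12378 genes tested in both tables, 15.1% lay above in both, 11.6% lay below at day 7 and above in adult testis, and 6.67% lay the other way. The 3 of 19 members are thus close to the share of all genes, and nothing particular to the members is read from either count.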

How the data were processed

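RNA-seq tables of 10 mouse samples were analysed, 4 of day 7 Sertoli cells and 6 of adult testis. The authors aligned reads with HISAT and Bowtie2 to GRCm38.p6 (submitters' processing notes) and estimated levels with RSEM (study's methods); versions are not given in the sources used here. The deposited estimated counts were rounded to whole numbers and tested. The deposited FPKM values are printed as levels, and deposited TPM values were not used in tests. The 20 empty unnamed columns of the adult table were not used. Depth is given as total counts per sample.

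Each table was fitted separately with edgeR 4.0.16 (quasi-likelihood test, TMM scaling, R 4.3.3), with Benjamini-Hochberg adjustment over all genes tested. Testing required an FPKM reaching 0.5 in a number of samples equal to the smaller group's size. Calls required a log2 fold change beyond 1 in either direction with an adjusted p below 0.001, the study's thresholds. Alternatives were DESeq2 1.42.0, limma 3.58.1 on log2(FPKM + 0.1) and log2(FPKM + 1), total-count and median-ratio scaling, other filters, a replicate block and leaving out each sample. Scripts were tested on simulated data in which 200 genes changed by 2 on the log2 scale. At an adjusted p under 0.05 (edgeR), 187 were recovered with 27 false calls in the day 7 setting. In the adult setting 105 were recovered with 4 false calls, so changes of that size can be missed there. Python 3.11.15 and matplotlib 3.10.9 were used for summaries and figures.

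Members and lists were chosen with earlier results of these data known. Values in every sample are given for up to 5 members of each role group with the highest mean FPKM, called members with a mean FPKM of at least 1, the 6 members named singly in the rule, *B2m*, the immunoproteasome subunits and up to 6 largest called changes of the pathway list in each direction. Others were named after their values were seen. Low counts limit the precision of low values, and reads of near-identical class I genes may be split between copies.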

Additional observations from a re-analysis of the deposited data

Results flagged for a closer look

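In 3 members every knockout lay on opposite sides of the controls in the 2 tables. The log2 fold change of *H2-Q6* was -0.43 in the day 7 cells, against 2.54 in adult testis. *H2-Q7* had -1.82 at day 7 and 3.24 in adult testis. *H2-T23* had -0.56 at day 7 and 4.07 in adult testis. The difference between the tables was not tested for any of them, since the tables come from different material and were made separately, and none of the 3 passed the test at day 7 (edgeR). Over the 12378 genes tested in both tables, 11.6% lay below at day 7 and above in adult testis, so 3 of 19 members is close to the share of all genes.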

How the results depend on the processing

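Class II genes at day 7 and most M genes rest on few counts, in libraries of a size like that of the others. No adult member was called lower under any alternative run. At day 7, DESeq2 called 126 genes where edgeR called 0, leaving out 1 sample gave 0 to 650, and no alternative called a member. In adult testis 7432 genes and 15 members were called. With an adjusted p under 0.05 and no fold limit there were 12969 and 24. Leaving out 1 sample gave 2695 to 10301 genes and 3 to 19 members. DESeq2 called 10256 genes and 19 members, and total-count scaling called 5836 genes higher and 2252 lower, against 3660 and 3772.

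With the replicate block, adult calls fell to 0 genes and 0 members, although 12209 genes and 22 members, all higher, had an adjusted p under 0.05 (edgeR; 12563 genes and 22 members at an unadjusted p under 0.05), and the smallest adjusted p was 0.00149. Same-numbered samples correlated by 0.0107 to 0.0247 in adult testis and 0.0358 at day 7, so the numbers were not taken to pair samples.

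These log2 fold changes reversed, and the cause was not tested. *H2-DMa* at day 7 was -0.00866 with total-count scaling, -0.258 and -0.166 with limma (pseudocounts 0.1 and 1) and -0.238 to 0.257 leaving out 1 sample. In adult testis *H2-Ob* was 0.762 with total-count scaling, 1.34 and 0.425 with limma and 0.515 with the replicate block, and *H2-Q1* was 0.789, 0.956, 0.559 and 0.0876 in the same order. *Nlrc5* was 0.0662 with total-count scaling and 0.00455 with limma (pseudocount 1). Leaving out 1 sample gave -0.651 to 1.18 for *H2-Ob*, -0.376 to 0.591 for *H2-Q1*, -0.166 to 1.06 for *Tap1* and -0.0146 to 0.514 for *H2-DMa* in adult testis. At day 7 it gave -0.664 to 0.237 for *H2-D1*, -0.657 to 0.133 for *H2-K1*, -0.762 to 0.283 for *H2-T10*, -0.431 to 0.70 for *H2-Q1*, -6.26 to 1.23 for *H2-Q8* (its lowest value sets a lone knockout with no count against the controls and depends on the prior count), -0.64 to 0.224 for *H2-T-ps*, -0.247 to 0.578 for *H2-Eb1*, -0.0472 to 0.609 for *Tap1* and -0.184 to 0.0403 for *Tapbp*.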
